A study of Mus musculus with 12 samples.

Results

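The libraries made from 1/2 of a mouse oocyte were compared with libraries made from whole oocytes that had been amplified for few cycles. The 1/2 group holds the libraries whose name carries the 1/2 fraction, and the reference pools the whole-oocyte libraries at 10 and at 14 cycles, so 2 plus 4 of 12 libraries were used. Poly(A) RNA was measured in fully grown oocytes with an intact germinal vesicle (GV), taken from a B6D2_F1 female of 12 weeks into M2 medium with milrinone, which holds them in prophase. A whole oocyte gave 1 library, whereas the fractions were diluted from the lysates of 2 other oocytes. An ERCC mix of synthetic control RNAs was added to each lysate, and RNA was captured with oligo-dT beads. According to the methods the fractions were amplified for 18 cycles, a number that their sample labels do not state. Cycle number, RNA input, oocyte and preparation therefore cannot be told apart in this comparison. Counts on genes were 11597144 and 9189672 at 10 cycles, 12349577 and 13806199 at 14 cycles and 4024670 and 3598549 in the 1/2 libraries. The shallower 1/2 libraries set the precision for rare transcripts. The reads carry no molecular identifiers, and bounds set for genes without counts cover the counting of reads only.

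A fully grown oocyte has stopped most transcription and lives on a store of maternal mRNA, much of it kept with short poly(A) tails until meiosis resumes. That store encodes the zona pellucida, growth factors that act on the surrounding cumulus cells, the subcortical maternal complex under the cell membrane, and the machinery for meiosis and for the first divisions of the embryo. Cumulus and granulosa cells reach the oocyte through projections that cross the zona, so their transcripts can travel with an isolated oocyte.

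The oocyte label was checked against 26 oocyte genes, and each of them had a count in all 6 libraries. Their summed level in normalized counts (counts divided by a median-ratio size factor) was 392364 and 356649 at 10 cycles, 389152 and 400375 at 14 cycles and 487981 and 394289 in the 1/2 libraries. Khdc3 had the highest mean of normalized counts over the 6 libraries, carried by the 1/2 group, while Padi6, Gdf9 and Zbed3 exceeded it in every reference library. Markers of other ovarian cells were far scarcer, and their sums were lower in the 1/2 libraries. The 18 granulosa and cumulus markers summed to 2602 and 1967 at 10 cycles, 2254 and 2673 at 14 cycles and 646 and 652 in the 1/2 libraries, led by Esr2. Without Esr2, Nr5a2, Cyp19a1 and Kitl, the 4 that passed the test given below, the other 14 summed to 689.6 and 33.6 at 10 cycles, 112 and 479 at 14 cycles and 39.4 and 29.97 in the 1/2 libraries, so replicate 2 at 10 cycles lay at their level. The 9 markers of stroma, theca and endothelium summed to 602 and 353 at 10 cycles, 354.5 and 440.3 at 14 cycles and 123 and 125 in the 1/2 libraries, led by Pecam1. Without Pecam1 the other 8 summed to 269 and 34.4 at 10 cycles, 68.6 and 81.2 at 14 cycles and 34.7 and 2.5 in the 1/2 libraries. The 11 blood and immune markers summed to 75.1 and 10.9 at 10 cycles, 17.3 and 33 at 14 cycles and 4.63 and 0 in the 1/2 libraries, led by Cd68. No count was found in any of the 6 libraries for Tnfaip6, a marker of expanded cumulus, or for the globin genes Hba-a1, Hba-a2 and Hbb-bt. Both 1/2 libraries were at 0 for 8 of the 18 granulosa markers, 10 of the 11 blood markers and 4 of the 9 stromal markers, and the more deeply sequenced replicate 2 at 10 cycles was at 0 for 7, 9 and 3 of them.

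Steroid-producing follicle cells are marked by Cyp11a1, which makes pregnenolone from cholesterol, and by Hsd3b1, which makes progesterone. Cyp11a1 had 487 and 10.9 normalized counts at 10 cycles, 36.4 and 141 at 14 cycles and 6.95 and 2.5 in the 1/2 libraries. Hsd3b1 had 454 and 5.03 at 10 cycles, 21.5 and 119 at 14 cycles and 0 and 0 in the 1/2 libraries. Most of its 988 counts in the reference came from replicate 1 at 10 cycles, so no single fold is given. Both genes were high in replicate 1 at 10 cycles and in replicate 2 at 14 cycles and low in replicate 2 at 10 cycles, so most of the spread lay inside the reference. The gap junction gene Gja1 and the inhibin gene Inha followed the same libraries, with 238 and 0 normalized counts of Gja1 at 10 cycles. Whole oocytes at 18 cycles had summed normalized counts of 931 and 700 for the granulosa and cumulus markers. Their sums were 95.2 and 129 for stroma, theca and endothelium, and 11.9 and 43 for blood. Differences between these sums were not tested. Fewer follicle cells, less RNA per cell, cycle number and sequencing depth cannot be told apart here. The part of follicle-cell transcripts in the other results was measured only by leaving the libraries high in them out.

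**Figure D1:**
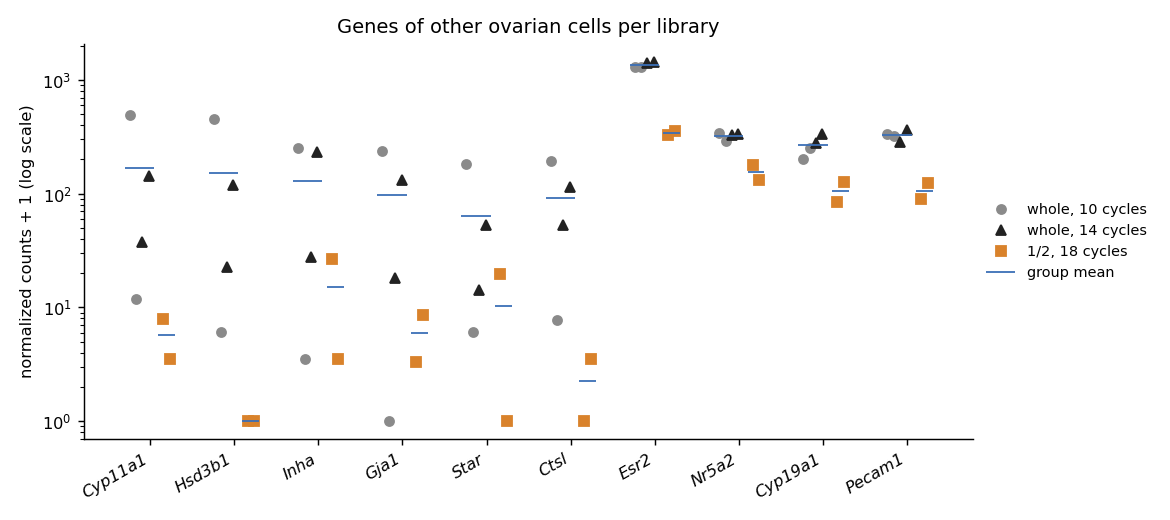
Normalized counts plus 1 on a log scale are given for 10 genes taken as markers of other ovarian cells. Each of the 4 reference libraries and the 2 libraries of 1/2 oocytes has 1 point, with a line at the group mean. In replicate 2 at 10 cycles Esr2, Nr5a2, Cyp19a1 and Pecam1 did not share the low level of Gja1 and Inha. Cyp11a1 ranges from 10.9 to 487 within the reference, while Esr2 stays between 1293 and 1440 there and between 327 and 352 in the 1/2 libraries.

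The 1/2 libraries held more of the short transcripts for ribosomes, oxidative phosphorylation and histones, and less of the oocyte's Nlrp, Obox and Oog transcripts and of mitochondrially encoded RNA. In whole oocytes at 18 cycles the sums of these lists lay on the same side of the reference, with some values given below. Of 17551 genes tested, 2087 (11.9%) were lower and 2713 (15.5%) were higher in the 1/2 libraries at an adjusted p under 0.01 by edgeR (quasi-likelihood test, Benjamini-Hochberg adjusted p; the standard error SE is from that fit). The genes that fell had a median log2 fold change of -1.56, and those that rose had a median of 1.41. More than 4-fold changes were counted for 589 falling and 541 rising genes. Both libraries of the 1/2 group lay beyond all 4 reference libraries for 2086 of the falling and 2710 of the rising genes, and for 10215 (58.2%) of all genes tested. The median log2 fold change of all genes was -0.25 after median-ratio scaling, and -0.14 when the 1273 genes without a count in both 1/2 libraries were placed at the bound that 3 counts allow. Without replicate 1 of the 1/2 group the number of falling genes was 1078. With a reference of only replicate 2 at 10 cycles and replicate 1 at 14 cycles, the pair low in follicle-cell transcripts, 1386 genes fell and 1885 rose, an alternative that was chosen after seeing the data.

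Among the granulosa and cumulus markers Esr2, Nr5a2, Cyp19a1 and Kitl fell, 4 of the 15 tested (26.7%, against 11.9% over all genes tested), while Pecam1 fell among 8 stromal markers and none of 4 blood markers passed. Esr2, the oestrogen receptor beta, had 1293 and 1297 normalized counts at 10 cycles, 1423 and 1440.4 at 14 cycles and 327 and 352 in the 1/2 libraries, a log2 fold change of -2.01 (SE 0.17, adjusted p = 4.62e-06, edgeR). The 4 whole oocytes held nearly the same level of Esr2, unlike that of Cyp11a1, and the 1/2 libraries lay far below them. Cyp19a1, the aromatase, had 201 and 252 at 10 cycles, 280.5 and 333 at 14 cycles and 83.4 and 125 in the 1/2 libraries, and Kitl, the ligand of the oocyte's Kit receptor, had 80.1 and 96.5 at 10 cycles, 113 and 82.8 at 14 cycles and 18.5 and 15 in the 1/2 libraries. Nr5a2, a nuclear receptor gene, had 338 and 288 at 10 cycles, 326 and 337 at 14 cycles and 178 and 129.9 in the 1/2 libraries, and it did not pass with GC correction (adjusted p = 0.0155, edgeR), with ERCC size factors or without replicate 2 of the 1/2 group. Cyp19a1 did not pass without replicate 1. Of the 15 markers 3 passed in each of these settings, and 9 passed without a filter. Pecam1, an adhesion molecule of endothelium, had 332 and 319 at 10 cycles, 286 and 359 at 14 cycles and 88 and 122 in the 1/2 libraries, a log2 fold change of -1.63 (SE 0.24, adjusted p = 0.000193, edgeR). Cyp11a1, Hsd3b1, Gja1 and Inha, with the spread within the reference given above, did not pass (adjusted p = 0.0291, 0.0346, 0.0774 and 0.0985, edgeR), though Cyp11a1 passed without replicate 2 at 10 cycles. That replicate had 0 normalized counts of Gja1 and 2.52 of Inha. Yet it held Esr2, Nr5a2, Cyp19a1, Kitl and Pecam1 near the levels of the other whole oocytes. The genes that fell thus did not follow the other follicle-cell genes, and the source of their transcripts was not tested.

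Among the 26 oocyte genes 12 (46.2%) fell and 6 (23.1%) rose, against 11.9% and 15.5% over all genes tested. Their median log2 fold change was -0.65, against -0.25 over all genes tested. That median was -0.38 without replicate 2 of the 1/2 group, -0.98 with GC correction and -1.06 with at least 10 counts in every library. Khdc3 (ENSMUSG00000092622, chromosome 9, 73101836 to 73104438, GRCm38) encodes FILIA, a member of the subcortical maternal complex, and had 18699.7 and 21131 normalized counts at 10 cycles, 21719.7 and 24698 at 14 cycles and 153269 and 116232 in the 1/2 libraries. Its level in both 1/2 libraries was several times that of the highest reference library, with no overlap, and the log2 fold change was 2.64 (SE 0.15, adjusted p = 6.05e-07, edgeR). Reads of Khdc3 overlap the annotated gene Gm20509, which had a log2 fold change of 2.64, so the share of each in the rise is uncertain. Zar1 (ENSMUSG00000063935, chromosome 5, 72576806 to 72581254), whose protein binds and stores maternal mRNA, had 10494 and 10698 at 10 cycles, 11449.5 and 13326 at 14 cycles and 57679 and 44222 in the 1/2 libraries, and its log2 fold change was 2.15 (SE 0.15, adjusted p = 1.4e-06, edgeR). The 4 whole oocytes lay close together for Zar1, and neither 1/2 library came near them. Correction for GC content shrank these rises to 1.78 for Khdc3 and 0.68 for Zar1. Zbed3, another gene of the subcortical maternal complex, Figla and Lhx8, both oocyte transcription factors, and Ybx2, which stores mRNA, rose by 0.95, 0.84, 0.94 and 1.63 on the log2 scale. The rise of Ybx2 was -0.033 after GC correction, and that of Figla no longer passed (adjusted p = 0.0132 in edgeR), nor did Figla pass without replicate 1 of the 1/2 group.

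Padi6 (ENSMUSG00000040935, chromosome 4, 140727355 to 140742643), which is needed for the cytoplasmic lattices of the oocyte, fell. It had 50265 and 38706 normalized counts at 10 cycles, 43284 and 41319 at 14 cycles and 8925 and 11894 in the 1/2 libraries, and its log2 fold change was -2.06 (SE 0.18, adjusted p = 4.24e-06, edgeR). The growth factor gene Bmp15 (ENSMUSG00000023279, chromosome X, 6314107 to 6320721) had 31251 and 28555 at 10 cycles, 31024 and 29572 at 14 cycles and 5951 and 8449.7 in the 1/2 libraries, a log2 fold change of -2.06 (SE 0.17, adjusted p = 3.63e-06, edgeR). Its partner Gdf9 (ENSMUSG00000018238, chromosome 11, 53431023 to 53437904) changed less, from 39141 and 38983 at 10 cycles and 40644 and 42509.5 at 14 cycles to 20745 and 22254, a log2 fold change of -0.91 (SE 0.13, adjusted p = 0.000162, edgeR). All 3 were lower in both 1/2 libraries than in each reference library, so the groups did not overlap. Other falling members were the zona genes Zp1 and Zp2 (-0.92 and -1.96), the secreted protein gene Oosp1 (-1.73), the transcription factor Nobox (-1.46), the receptor Kit (-1.38), Mos (-1.01), which drives MAP kinase in meiosis, and the maternal-effect genes Nlrp5, Dppa3 and Npm2 (-1.59, -1.48 and -1.10). Zp3 had a log2 fold change of -0.40 and did not pass (adjusted p = 0.0757, edgeR), nor did Ooep at -0.15 and Tle6 at -0.38, both of the subcortical maternal complex. The oocyte linker histone H1foo had 24755 and 23892 at 10 cycles, 27227 and 27282 at 14 cycles and 36241 and 20494 in the 1/2 libraries, so the 1/2 libraries lay on both sides of the reference. After GC correction 14 of the 26 genes fell and 4 rose, with Zp3 and Tle6 among the lower. Mos did not pass without replicate 2 of the 1/2 group.

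**Figure D2:**
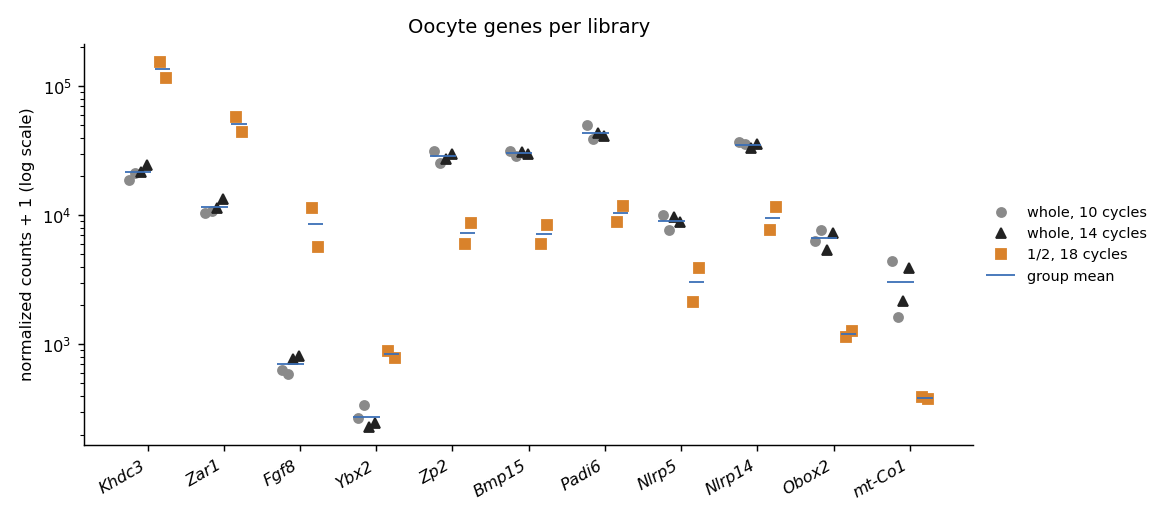
Normalized counts plus 1 on a log scale for 11 genes of the oocyte in the 4 reference libraries and the 2 libraries of 1/2 oocytes, with 1 point per library and a line at the group mean. Khdc3 lies between 18700 and 24698 in the reference and at 153269 and 116232 in the 1/2 libraries. Padi6 lies between 38706 and 50265 in the reference and between 8925 and 11894 in the 1/2 libraries.

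The Obox homeobox genes, the Oog genes for leucine-rich repeat proteins and many Nlrp genes for NACHT-domain proteins are expressed mainly in oocytes and early embryos, while other Nlrp genes act in immune cells. Of their 28 members 20 were tested, and 19 (95%) fell while none rose, against 11.9% and 15.5% over all genes tested. The median log2 fold change of the members was -1.89. Nlrp14 (ENSMUSG00000016626, chromosome 7, 107166990 to 107198102), the member with the most counts, had 37184 and 35410.3 normalized counts at 10 cycles, 33155 and 35425 at 14 cycles and 7642 and 11529 in the 1/2 libraries, and fell with a log2 fold change of -1.88 (SE 0.18, adjusted p = 8.09e-06, edgeR). Nlrp4f had 9316 and 12354 at 10 cycles, 8468 and 8709.7 at 14 cycles and 1802 and 3224 in the 1/2 libraries, and Nlrp5, which anchors the subcortical maternal complex, had 10006 and 7702 at 10 cycles, 9663 and 8806 at 14 cycles and 2145 and 3881 in the 1/2 libraries. In all 3 both 1/2 libraries lay far below each reference library. The member that did not pass was Nlrp3, an inflammasome sensor of immune cells, with 2.1 to 12.6 normalized counts in the reference and 0 in both 1/2 libraries. With GC correction 19 members passed as lower, at a median of -1.60, and without replicate 1 of the 1/2 group 17 did. The median in the 1/2 libraries taken one at a time was -2.14 for replicate 1 and -1.63 for replicate 2. Several Obox and Oog genes are near-identical copies, so their single values are uncertain.

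F-box and Kelch-like adaptors choose the substrates of ubiquitin ligases, and 28 (29.2%) of the 96 tested fell while 12 (12.5%) rose, against 11.9% and 15.5% over all genes tested, at a median of -0.27. The oocyte-specific genes Fbxw24, Fbxw18 and Fbxw15 had the most counts among those that fell, and their log2 fold changes were -2.34, -2.47 and -1.71. Fbxw24 had 16056 and 15585 normalized counts at 10 cycles, 15490.1 and 18152 at 14 cycles and 2972 and 3457 in the 1/2 libraries. These Fbxw genes are similar copies, which leaves the share of each uncertain. Without replicate 1 of the 1/2 group 18 members of the list fell and 12 rose at a median of -0.08, and the median was -0.47 without replicate 2, -0.15 without replicate 1 at 14 cycles and -0.51 with GC correction. Fbxo5, an inhibitor of the anaphase-promoting complex known as EMI1, rose to 2462 and 2887 from 1288 to 1502 in the reference, a log2 fold change of 0.93 (SE 0.15, adjusted p = 0.000343, edgeR). Fbxl6 and Fbxo28 rose as well, by 2.06 and 0.95.

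The ribosome showed a shift toward the 1/2 libraries. Of 81 cytoplasmic ribosomal protein genes tested (82 in the list), 42 (51.9%) rose and 5 (6.17%) fell, with a median log2 fold change of 1.28. Over all genes tested 15.5% rose and 11.9% fell. The acidic stalk protein gene Rplp0 had 1515 and 1462 normalized counts at 10 cycles, 1438 and 1488 at 14 cycles and 4742 and 3025 in the 1/2 libraries, a log2 fold change of 1.40 (SE 0.17, adjusted p = 5.36e-05, edgeR). The paralogue Rpl39l rose by 1.98, whereas Rpl4, Rpl17 and Rpl39 fell, with log2 fold changes of -0.65, -1.31 and -0.90. Rpl32 and Rps20 rose by 1.30 and 1.81, while Rpl19 had 75.1 and 60.4 at 10 cycles, 40.6 and 59.8 at 14 cycles and 30.1 and 37.5 in the 1/2 libraries and did not pass. Ribosomal protein genes have many processed copies in the genome, and some of these genes overlap others, so single values are uncertain. The median over the list was 1.45 in replicate 1 and 0.66 in replicate 2 of the 1/2 group. With GC correction 36 members rose and 4 fell, at a median of 0.87. Without replicate 1 of the 1/2 group 27 rose and 3 fell at a median of 0.69, and without replicate 2 the counts were 47 and 2. Rpl39 did not pass when either 1/2 library was left out, and Rpl4 did not when any 1 of 5 libraries was, or with GC correction.

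Mitochondrial ribosomal protein genes, all encoded in the nucleus, rose in 52 (66.7%) and fell in 2 (2.56%) of 78 cases, at a median of 1.22. The shares over all genes tested were 15.5% and 11.9%. Mrpl12 had 904 and 1039 normalized counts at 10 cycles, 1037 and 1096 at 14 cycles and 5712 and 4026 in the 1/2 libraries, with a log2 fold change of 2.26 (SE 0.17, adjusted p = 1.75e-06, edgeR). Mrps22 and Mrpl48 rose by 0.79 and 1.35, while Mrps31 and Mrpl1 were the members that fell, at -1.22 and -1.48. Nuclear genes for oxidative phosphorylation rose in 46 (56.1%) and fell in 4 (4.88%) of 82 cases, against the same 15.5% and 11.9%. Their median was 0.94. Cox4i1, a subunit of cytochrome c oxidase, had 4079 and 4639 at 10 cycles, 3863 and 4501 at 14 cycles and 16226 and 10453 in the 1/2 libraries, a log2 fold change of 1.64 (SE 0.17, adjusted p = 1.59e-05, edgeR). Atp5e of the ATP synthase and Uqcrq of complex III rose by 2.46 and 2.40. The core subunit Uqcrc2 and the complex I subunits Ndufs4 and Ndufb3 went the other way, at -1.31, -1.56 and -1.27. After GC correction 47 and 36 members of these lists rose, and without replicate 1 of the 1/2 group 38 and 34 did. Mrps22 and Mrpl1 did not pass without that library, nor Mrps31 and Ndufb3 without replicate 2.

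Genes on the mitochondrial genome moved opposite to the nuclear genes of the same organelle. Of the 37 genes 12 were tested, 9 (75%) fell and none rose, against 11.9% and 15.5% over all genes tested. The median log2 fold change of the 12 was -2.05. mt-Co1, a catalytic subunit of cytochrome c oxidase, had 4399 and 1635 normalized counts at 10 cycles, 2158 and 3886 at 14 cycles and 392 and 377 in the 1/2 libraries, a log2 fold change of -2.97 (SE 0.39, adjusted p = 7.19e-05, edgeR). The reference libraries differed among themselves by more than 2-fold for mt-Co1, yet the lowest of them was above both 1/2 libraries. The large ribosomal RNA mt-Rnr2 had 8357 and 6069.5 at 10 cycles, 10011 and 8828 at 14 cycles and 1028 and 2553 in the 1/2 libraries, a log2 fold change of -2.22 (SE 0.32, adjusted p = 0.000179, edgeR). All mitochondrially encoded genes took 0.329% and 0.198% of the gene counts at 10 cycles, 0.284% and 0.301% at 14 cycles and 0.0358% and 0.0667% in the 1/2 libraries. The exact two-sided permutation test over these 6 libraries gave p = 0.133, the smallest value that 2 against 4 libraries allow. With GC correction 6 of the 12 genes passed as lower and the median was -1.33.

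**Figure D3:**
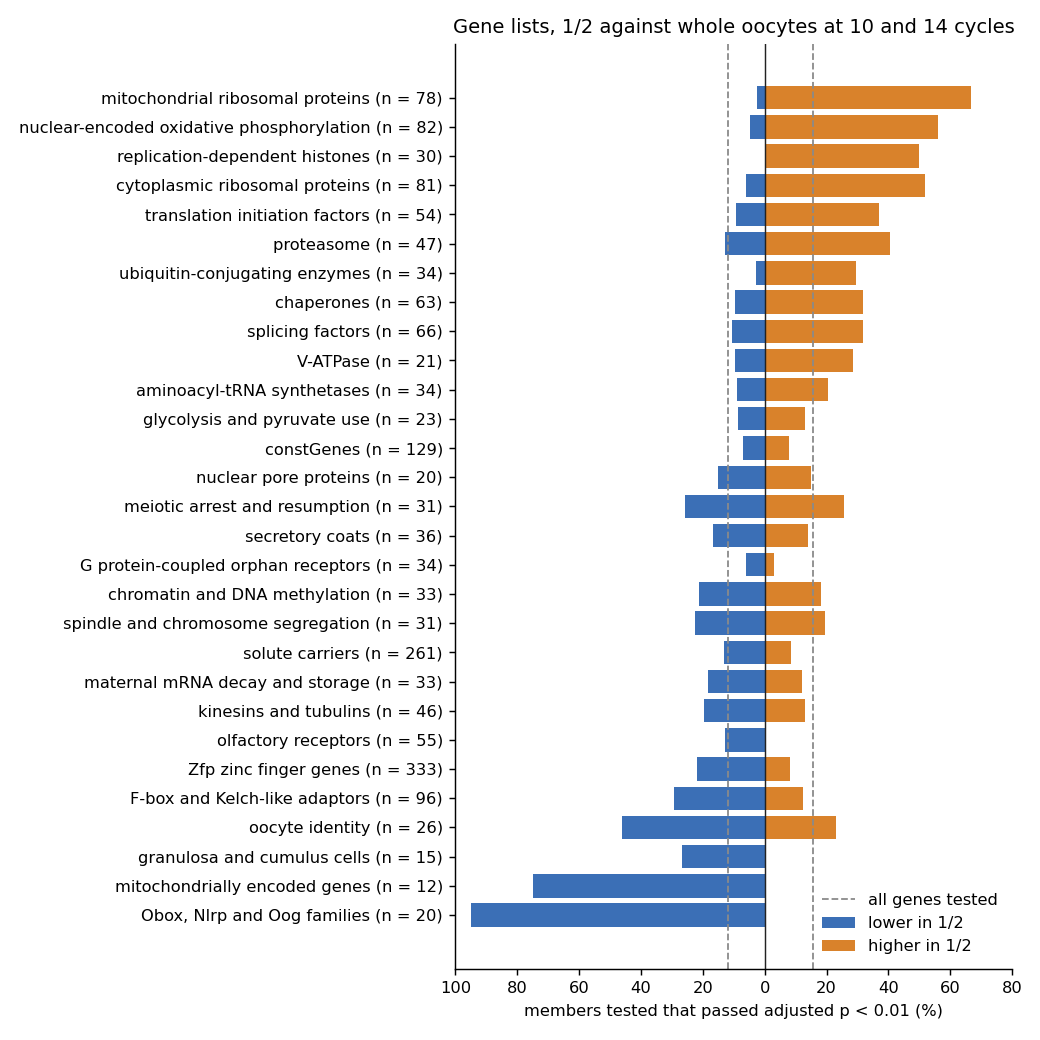
Share of the tested members of gene lists with at least 10 tested that passed an adjusted p under 0.01 as lower (bars to the left) or higher (bars to the right) in the 1/2 libraries, in percent. Dashed lines mark the shares over all genes tested, 11.9% lower and 15.5% higher; 19 of 20 Obox, Nlrp and Oog genes fell and 52 of 78 mitochondrial ribosomal protein genes rose.

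Histone genes that are read in S phase end their mRNA in a stem loop and mostly lack a poly(A) tail. Of the 67 in the list 30 were tested, 15 (50%) rose and none fell, against 15.5% and 11.9% over all genes tested. Their median log2 fold change was 2.18, or 1.44 and 11 rising with GC correction. Hist3h2ba had 49.2 and 42.8 normalized counts at 10 cycles, 76.4 and 53.5 at 14 cycles and 667 and 369.7 in the 1/2 libraries, a log2 fold change of 3.22 (SE 0.28, adjusted p = 4.87e-06, edgeR). Hist1h3f, Hist3h2a, Hist1h2bk and Hist1h4a rose by 2.69, 1.40, 3.42 and 3.30. Replicate 1 of the 1/2 group held more of each of these 5 genes than replicate 2, and both exceeded every reference library. Histone genes are near-identical to one another, which leaves single values uncertain. Without replicate 1 of the 1/2 group 9 members rose, and Hist3h2a was not among them.

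Translation initiation factors and chaperones rose more often than they fell. The initiation factors gave 20 rising (37%) and 5 falling (9.26%) genes of 54, at a median of 0.40, or 0.25 with GC correction. Eif1b, Eif6 and Eif5 rose by 1.67, 1.60 and 1.01, while the cap-binding factor Eif4e had 898 and 891 at 10 cycles, 929.8 and 914 at 14 cycles and 183 and 362 in the 1/2 libraries and fell with a log2 fold change of -1.74 (SE 0.24, adjusted p = 0.000133, edgeR). Eif4e1b, its oocyte form, had a log2 fold change of -0.38 and passed only with GC correction. Aminoacyl-tRNA synthetases rose in 7 (20.6%) and fell in 3 (8.82%) of 34 cases, near the 15.5% and 11.9% over all genes tested, at a median of -0.20 that turned to 0.03 without replicate 1 of the 1/2 group, with the mitochondrial Lars2 at 2.04 and the cytoplasmic Lars at -2.09. Chaperones rose in 20 (31.7%) and fell in 6 (9.52%) of 63 cases, so that the falling share of both lists was near the 11.9% over all genes, at a median of 0.37, with the heat shock protein gene Hspa4 at 1.66 and the chaperonin gene Cct3 at -0.92. Without replicate 1 of the 1/2 group the rising genes numbered 12 among the initiation factors and 3 among the synthetases, where 3 fell too and of which 4 rose without replicate 2 at 14 cycles, and 13 initiation factors rose without replicate 1 at 10 cycles or either library at 14 cycles.

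Genes of the proteasome and for ubiquitin-conjugating enzymes rose more often than they fell, unlike the F-box and Kelch-like adaptors above, a difference that was not tested. Of 47 proteasome genes tested 19 (40.4%) rose and 6 (12.8%) fell, the latter near the 11.9% over all genes tested, of which 15.5% rose, at a median of 0.46 that was 0.28 without replicate 1 of the 1/2 group. The 20S subunit gene Psma7 had 4473 and 4955 normalized counts at 10 cycles, 5239 and 5880.2 at 14 cycles and 19323 and 14579 in the 1/2 libraries, a log2 fold change of 1.72 (SE 0.16, adjusted p = 6.13e-06, edgeR), whereas Psma2, another subunit of that core, fell to 1862 and 1506 from at least 3576. Psme4, an activator of the proteasome, fell with a log2 fold change of -1.48. Ubiquitin-conjugating enzymes rose in 10 (29.4%) of 34 cases and fell in 1 (2.94%), Ube2l3, at a median of 0.50, but that fall did not pass when either 1/2 library was left out. Ube2c, which works with the anaphase-promoting complex, rose from 1129 to 1327 in the reference to 3518 and 2779.9, a log2 fold change of 1.37 (SE 0.15, adjusted p = 2.57e-05, edgeR). Splicing factors rose in 21 (31.8%) and fell in 7 (10.6%) of 66 cases, the latter again near 11.9%, at a median of 0.47. Srsf2, a serine- and arginine-rich splicing factor, had 968 and 1073 at 10 cycles, 973 and 746 at 14 cycles and 5990 and 9044 in the 1/2 libraries, a log2 fold change of 3.0 (SE 0.19, adjusted p = 8.53e-07, edgeR). The core factors Prpf8 and Prpf6 fell, at -0.76 and -1.21. Without replicate 1 of the 1/2 group 13 splicing factors rose and 3 fell, 3 to 4 proteasome genes fell with any 1 library left out, and neither Prpf8 nor Psme4 passed. With ERCC size factors 14 proteasome genes and 15 splicing factors rose, and 3 and 4 fell.

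Genes of meiosis moved both ways. Of 31 genes of meiotic arrest and resumption 8 rose and 8 fell (25.8% each way, against 15.5% and 11.9% over all genes tested), with a median of 0.10 that turned to -0.21 with GC correction and was 0.03 without replicate 2 of the 1/2 group. Cyclin B1, the partner of CDK1 at entry into meiosis, is encoded by Ccnb1, which had 2507 and 2144 normalized counts at 10 cycles, 2788 and 2819.5 at 14 cycles and 815 and 712 in the 1/2 libraries, a log2 fold change of -1.75 (SE 0.18, adjusted p = 1.46e-05, edgeR). Wee2, the kinase that holds CDK1 inactive in the arrested oocyte, fell with a log2 fold change of -1.19. Mapk3 had a log2 fold change of -0.065 and Pde3a, which breaks down cAMP, had -0.35, and neither passed, though Mapk3 did with GC correction. Plk1 rose by 0.78, a call that GC correction ended (adjusted p = 0.296, edgeR). Of 31 genes of the spindle and of chromosome segregation 6 (19.4%) rose, near the share over all genes, and 7 (22.6%) fell, with a median of -0.18 that was 0.036 with GC correction and -0.07 without replicate 1 of the 1/2 group. With ERCC size factors 4 of these rose and 2 fell, 11 fell with at least 10 counts in every library, and 6 genes of arrest rose and 5 fell with ERCC size factors. Birc5, the survivin of the chromosomal passenger complex, rose by 1.21, and the checkpoint kinase gene Bub1b fell, at -0.91. Kinesins and tubulins fell in 9 (19.6%) and rose in 6 (13%) of 46 cases, the latter near the 15.5% over all genes tested, with Tuba4a at -1.19 and Tubb6 at 0.97, the latter not passing with GC correction. Leaving out 1 library at a time gave 5 to 8 falling and 6 to 8 rising genes of arrest, and 4 to 6 falling and 4 to 7 rising genes of the spindle, with 6 to 10 falling and 3 to 6 rising kinesins and tubulins.

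The genes that store and remove maternal mRNA fell in 6 (18.2%) and rose in 4 (12.1%) of 33 cases, against 11.9% and 15.5% over all genes tested, at a median of -0.38 that was -0.19 without replicate 1 of the 1/2 group and -0.07 with GC correction. Pabpn1l, a poly(A)-binding protein of the oocyte, had 4244 and 4727 normalized counts at 10 cycles, 3953 and 3944 at 14 cycles and 1469 and 879 in the 1/2 libraries, a log2 fold change of -1.84 (SE 0.21, adjusted p = 3.19e-05, edgeR). Btg4, an adaptor of the CCR4-NOT deadenylase, fell with a log2 fold change of -0.63, a call that GC correction ended (adjusted p = 0.162, edgeR), as did leaving out any 1 of 4 libraries. The deadenylase subunits Cnot11 and Cnot3 rose by 1.75 and 1.33. The exosome nuclease gene Exosc10 had 757 and 804 at 10 cycles, 752 and 761 at 14 cycles and 637 and 602 in the 1/2 libraries and did not pass. Chromatin and DNA methylation genes fell in 7 (21.2%) and rose in 6 (18.2%) of 33 cases, at a median of -0.41, or -0.64 with GC correction. Dnmt1, the maintenance methyltransferase, had 19964 and 21746 at 10 cycles, 17496 and 18896 at 14 cycles and 13866 and 11707 in the 1/2 libraries, a log2 fold change of -0.61 (SE 0.15, adjusted p = 0.00571, edgeR). Eed of the polycomb complex rose by 1.51, and the methyltransferase gene Kmt2c fell, at -0.96. Tet3, the dioxygenase of the zygote, had -0.11 and did not pass. Leaving out 1 library at a time gave 4 to 8 falling and 2 to 4 rising genes of mRNA storage and removal, and 3 to 7 falling and 3 to 6 rising chromatin genes. DESeq2 called 11 genes of mRNA storage and removal lower, as many as without a filter or with at least 10 counts in every library, and 12 chromatin genes lower, while with ERCC size factors 3 chromatin genes fell and 3 rose. Dnmt1 lost its call without any 1 of 5 libraries, the exception being replicate 1 of the 1/2 group, and Kmt2c lost it without that replicate.

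The Zfp zinc finger genes, many of them repressors with a KRAB domain, fell in 73 (21.9%) of 333 cases and rose in 27 (8.11%), against 11.9% and 15.5% over all genes tested, at a median of -0.98. Their summed level was not lower, at 91939 to 96065 normalized counts in the reference and 98835 and 99403 in the 1/2 libraries. That median was -0.78 with genes at 0 in the 1/2 libraries placed at their bound, and -0.83 with GC correction, when 66 fell and 12 rose. With at least 10 counts in every library it was -0.57. Zfp57, which keeps imprints methylated, went against the list: it had 10004 and 8593 normalized counts at 10 cycles, 9594 and 9591 at 14 cycles and 16404 and 15623 in the 1/2 libraries, a log2 fold change of 0.76 (SE 0.13, adjusted p = 0.00062, edgeR). Zfp638 had 1344 and 1709 at 10 cycles, 1131 and 1019.5 at 14 cycles and 415 and 602 in the 1/2 libraries, and Zfp638, Zfp957 and Zfp277 fell, at -1.36, -1.09 and -1.02, the first of these not passing without replicate 1 of the 1/2 group. Of the 39 genes of the homeobox clusters 6 were tested, and Hoxa7 and Hoxd9 rose by 1.26 and 3.67, the latter from at most 13.2 normalized counts to 111 and 74.9, while Hoxa7 did not pass with GC correction or without any 1 of 4 libraries. Solute carriers fell in 34 of 261 cases (13%, near the 11.9% over all genes tested) and rose in 22 (8.43%, below the 15.5%), at a median of -0.45. Their median was -0.69 with GC correction, -0.23 with only 10 cycles as the reference and -0.15 with at least 10 counts in every library. Of the solute carriers 13 fell and 20 rose without replicate 1 of the 1/2 group, 18 fell without its replicate 2, and 22 fell without replicate 1 at 14 cycles. The cystine transporter Slc7a11 fell, at -1.52, while Slc3a2, the heavy chain it pairs with, rose by 1.08. Olfactory receptor genes were tested in 55 of 1093 cases, of which 7 (12.7%, again near that share) fell and none rose, with Olfr976 at -1.62, and 2 to 8 fell with 1 library left out.

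V-ATPase genes rose in 6 (28.6%) and fell in 2 (9.52%) of 21 cases. Nuclear pore genes gave 3 each way of 20 (15%), and secretory coat genes gave 5 rising (13.9%) and 6 falling (16.7%) of 36, near the 15.5% and 11.9% over all genes tested. Atp6v0e rose by 1.23 and Atp6v1a fell, at -1.84. Glycolysis and pyruvate genes, also near those shares, rose in 3 (13%) and fell in 2 (8.70%) of 23 cases, with a median of -0.014 that was 0.047 under ERCC scaling, -0.28 with GC correction and 0.20 with at least 10 counts in every library. Mpc2, a carrier of pyruvate into mitochondria, rose by 2.12, and Tpi1 fell, at -1.06. Orphan receptors coupled to G proteins gave 1 rising (2.94%) and 2 falling (5.88%) genes of 34, below those shares, and Gpr3, which keeps cAMP high in the arrested oocyte, had 860 and 758 at 10 cycles, 805 and 811 at 14 cycles and 871 and 852 in the 1/2 libraries. The genes that the study chose as constant from GV to the mature egg, a choice made on other libraries, rose in 10 (7.75%) and fell in 9 (6.98%) of 129 cases, at a median of -0.65. Among the constant genes with at least 10 counts in every library the median was 0.22. Leaving out 1 library at a time gave 0 to 2 falling nuclear pore genes, 2 to 7 falling secretory coat genes and 2 to 7 falling constant genes. With ERCC size factors 2 secretory coat genes and 4 constant genes fell, and DESeq2 called 6 of the orphan receptors lower. Tpi1 did not pass without replicate 2 of the 1/2 group.

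The largest rises were taken among 1023 genes that passed, averaged at least 50 normalized counts and did not overlap between groups. Fgf8 (ENSMUSG00000025219, chromosome 19, 45736798 to 45742915) encodes a growth factor that the oocyte sends to the cumulus cells. It had 633 and 589 normalized counts at 10 cycles, 769.8 and 811 at 14 cycles and 11438 and 5707 in the 1/2 libraries, a log2 fold change of 3.61 (SE 0.24, adjusted p = 9.92e-07, edgeR), and 2.00 with GC correction. Nrtn, which encodes the GDNF-family ligand neurturin, had 22.1 and 47.8 at 10 cycles, 29.2 and 23.6 at 14 cycles and 449 and 342 in the 1/2 libraries, a log2 fold change of 3.71 (SE 0.31, adjusted p = 3.59e-06, edgeR). GC correction left 1.01 for Nrtn and ended its call (adjusted p = 0.0217, edgeR). The 2 libraries of 1/2 oocytes differed about 2-fold for Fgf8, and both lay above the 4 reference libraries, as the rule required. Pgp, the phosphoglycolate phosphatase, had 336 and 364 at 10 cycles, 394 and 385 at 14 cycles and 4426 and 2979.7 in the 1/2 libraries, a log2 fold change of 3.32 (SE 0.18, adjusted p = 5.3e-07, edgeR). The cytokine signalling inhibitor Socs1 rose by 3.31, the mitochondrial ribosomal gene Mrpl52 by 3.05 and Ppp1r35, a regulatory subunit of protein phosphatase 1, by 3.29.

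The largest falls were taken by the same rule among 662 genes. Ldhc (ENSMUSG00000030851, chromosome 7, 46861203 to 46878142), a lactate dehydrogenase best known from sperm, had 221 and 73 normalized counts at 10 cycles, 226 and 394 at 14 cycles and 2.32 and 17.5 in the 1/2 libraries, a log2 fold change of -4.55 (SE 0.81, adjusted p = 0.000751, edgeR). The reference libraries spread over more than 5-fold for Ldhc, with replicate 2 at 10 cycles lowest. Both 1/2 libraries lay below that value, as the rule required. Tfrc, the transferrin receptor, had 141 and 88.1 at 10 cycles, 184 and 165 at 14 cycles and 2.32 and 30 in the 1/2 libraries, a log2 fold change of -3.19 (SE 0.60, adjusted p = 0.00111, edgeR). Il17f, a cytokine gene, had 423 and 456 at 10 cycles, 471 and 340.2 at 14 cycles and 53.3 and 40 in the 1/2 libraries, a log2 fold change of -3.17 (SE 0.28, adjusted p = 4.67e-06, edgeR). Both groups were tight for Il17f and far apart. The phospholipase gene Pla1a, the glutaminyl cyclase gene Qpct, the deubiquitinase gene Usp35, the ribosome assembly factor Mdn1 and Bbs7, a subunit of the BBSome of cilia, fell with log2 fold changes of -4.25, -4.23, -3.30, -3.82 and -3.88. Each of these 5 genes had at most 5 counts in a 1/2 library, so the sizes rest on few reads, and Ldhc, Tfrc, Usp35 and Mdn1 did not pass without replicate 1 of the 1/2 group, nor Mdn1 without replicate 2. Qpct, also named for its few counts in the 1/2 libraries, had 4 counts in the 1/2 group and 582 in the reference. Rpl36 and Hist1h2ah were named for having at most 3 counts in every reference library, a choice that fixed the direction of their change. Rpl36 had 18 counts in the 1/2 group and 2 in the reference.

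Of transcript GC, length, exon number and abundance, GC had the largest rank correlation with the fold change over all genes tested. Genes that rose had a median GC of 53.3%, those that fell 46.2% and those not called 49.3%, with 49.4% over all tested. Their median transcript lengths were 2028, 3161 and 2753 bases. Across 17532 genes, which are not independent, Spearman's rank correlation between log2 fold change and GC was 0.33, and 0.33 and 0.27 for the 1/2 libraries taken one at a time. In the 2785 protein-coding genes with the least GC (32.8% to 44.1%) the median log2 fold change was -0.63, with 579 genes lower and 270 higher. In the next 3 groups of that size it was -0.45, -0.27 and -0.038, and in the GC-richest (55.7% to 76.5%) it was 0.58, with 55 genes lower and 867 higher. The direction of the calls thus turned over along the GC range.

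**Figure D4:**
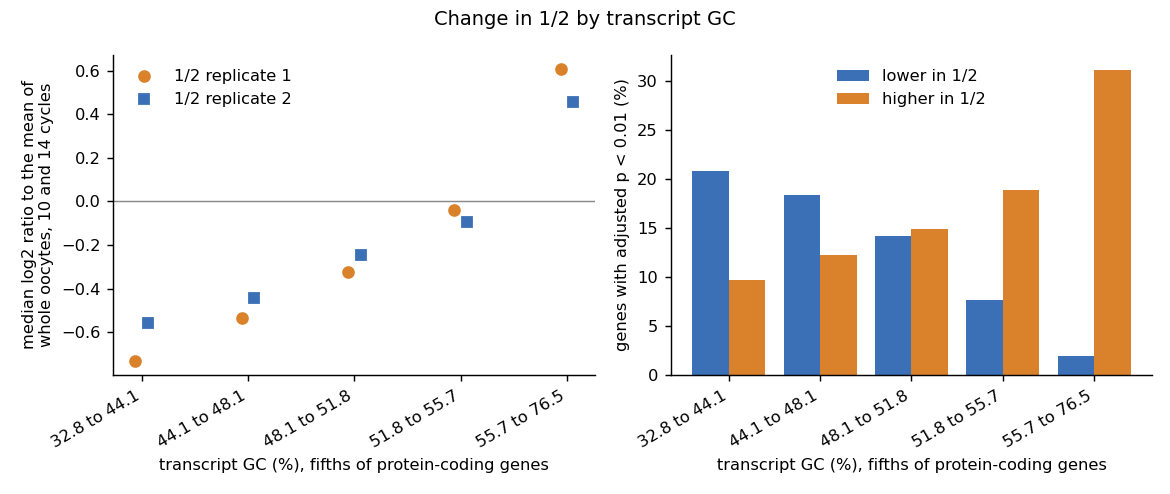
Protein-coding genes in 5 groups of equal size by transcript GC. The left panel gives the median log2 ratio of each 1/2 library to the mean of the whole oocytes, 1 point per library, and the right panel the percent of genes that passed as lower or higher; both 1/2 libraries climb from the GC-poorest to the GC-richest genes, where 55 are lower and 867 higher.

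Length went with the fold change as well. Of 5 groups of equal size by length the shortest had a median log2 fold change of 0.44 with 906 genes higher, and the longest -0.52 with 222 higher. In the shortest group the median was 0.57 in replicate 1 and 0.15 in replicate 2 of the 1/2 group, and 0.086 with GC correction, its median GC being 52.7%. In the longest it was -0.66 and -0.41, and -0.51 with GC correction. Protein-coding genes were also split into short, middle and long groups, which are wider than the 5 length groups above. Among 1322 genes in both this short group and the GC-richest group 585 rose and 16 fell, at a median of 1.07. Among 568 genes both short and GC-poorest 64 rose and 132 fell, at a median of -1.11, so short transcripts moved both ways with their GC. In protein-coding genes with a mean of at least 50 normalized counts (9240 genes) the rank correlation was 0.35 with GC and -0.32 with length. With length it was only -0.20 over all protein-coding genes and -0.09 over all genes tested. The count-weighted mean GC of a library was 49.1% and 48.9% at 10 cycles, 49.2% and 49.1% at 14 cycles and 50.9% and 50.6% in the 1/2 libraries. The count-weighted mean transcript length was 3986 and 3999.9 bases at 10 cycles, 3908 and 3907 at 14 cycles and 3338 and 3564 in the 1/2 libraries. Both measures separated the groups without overlap (exact two-sided permutation p = 0.133).

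The first coding bases of called genes at low and high GC show the contrast, with G and C in capitals. GC was ranked among called protein-coding genes that averaged at least 50 normalized counts. They also had no overlap between groups and no overlapping annotated gene. They were read from GENCODE M21 on GRCm38, along each gene's own strand. Gm29106 (chromosome 1, 118176542 to 118202307, plus strand) encodes a predicted zinc finger protein and had the lowest transcript GC in that set (33.5%). Zfp735 (chromosome 11, 73688778 to 73713798, plus strand) was the lowest but 2 (33.8%), and both fell. Nrtn (chromosome 17, 56751325 to 56757530, minus strand) and Prr7 (chromosome 13, 55464267 to 55473154, plus strand), which rose, had the highest in that set, at 72.8% and 69.0%. Of the 120 bases shown 44.2% are G or C in Gm29106, 43.3% in Zfp735, 66.7% in Nrtn and 61.7% in Prr7.
Gm29106: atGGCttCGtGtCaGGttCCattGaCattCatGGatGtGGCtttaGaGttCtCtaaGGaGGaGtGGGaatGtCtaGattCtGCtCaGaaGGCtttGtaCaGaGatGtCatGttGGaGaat
Zfp735: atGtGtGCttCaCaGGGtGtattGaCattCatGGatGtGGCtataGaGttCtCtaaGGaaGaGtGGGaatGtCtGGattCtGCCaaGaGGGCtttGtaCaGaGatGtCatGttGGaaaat
Nrtn: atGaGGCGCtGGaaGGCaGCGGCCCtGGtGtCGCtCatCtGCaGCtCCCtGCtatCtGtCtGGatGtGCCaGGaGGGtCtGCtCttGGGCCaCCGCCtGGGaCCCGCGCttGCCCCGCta
Prr7: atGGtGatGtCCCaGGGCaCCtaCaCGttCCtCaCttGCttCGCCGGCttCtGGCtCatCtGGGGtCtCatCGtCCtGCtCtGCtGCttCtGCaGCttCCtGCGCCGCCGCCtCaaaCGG

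Zfp735 had 525 and 746 normalized counts at 10 cycles, 554 and 602 at 14 cycles and 92.7 and 175 in the 1/2 libraries, a log2 fold change of -2.19 (SE 0.28, adjusted p = 5.88e-05, edgeR), and Gm29106 had 16.2 and 17.5 in the 1/2 libraries and -2.25. Prr7, a proline-rich membrane protein gene, had 286 and 530.1 at 10 cycles, 387 and 419 at 14 cycles and 3292 and 2947 in the 1/2 libraries, a log2 fold change of 2.94 (SE 0.21, adjusted p = 1.4e-06, edgeR). With GC correction the log2 fold changes were -1.21 for Zfp735 (adjusted p = 0.00149, edgeR), -1.23 for Gm29106 and 0.62 for Prr7, and the latter pair no longer passed, nor did Gm29106 when either 1/2 library was left out. Zinc finger genes of this kind have similar copies, so their single values are uncertain. Over all genes the correction brought the rank correlation with GC from 0.33 to 0.030 and moved the median log2 fold change from -0.25 to -0.40. It called 12% of genes lower and 11.9% higher. Of the genes lower without the correction 1643 (78.7%) were still lower with it, and of those higher 1798 (66.3%) were still higher.

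By gene class, 1761 of the falling and 2421 of the rising genes were protein-coding. Long intergenic RNAs fell in 164 (15.5%) and rose in 30 (2.84%) of 1057 cases, against 11.9% and 15.5% over all genes tested, at a median of -1.44. RNAs from bidirectional promoters rose in 18 (23.7%) of 76 cases with none lower, at a median of 0.81 that was 0.27 with GC correction. Below the shares over all genes both ways were antisense RNAs, which rose in 119 (12.6%) and fell in 53 (5.63%) of 941 cases, and processed pseudogenes, which rose in 23 (4.44%) and fell in 28 (5.41%) of 518. Whether the counts were made by strand was not settled, so antisense values can include reads of the gene opposite. The median reference level was 13.7 normalized counts for the intergenic class, 14.8 for the bidirectional class and 143 for protein-coding genes. A fall is hard to call from such low levels, and genes at 0 in the 1/2 libraries were not placed at a bound in these medians. The part of abundance in the result was not tested. In the least abundant of 5 groups of protein-coding genes the median log2 fold change was -1.14 with 11 lower and 67 higher, and in the most abundant it was 0.06 with 627 lower and 783 higher. These groups were cut by reference level, which is also the denominator of the fold change. The least abundant group had 0.28 to 16.4 normalized counts in the reference. Rare genes could pass the filter through the deeper reference alone, so that group gives no result about rare transcripts. By counts, not per length, the rRNA entry CT010467.1, Khdc3 and Zbed3 led the 1/2 libraries. CT010467.1, Padi6 and Gdf9 had the highest means over the reference, though Padi6 exceeded CT010467.1 in 3 of its 4 libraries and Gdf9 did in 2. CT010467.1 had 42516 and 38395 at 10 cycles, 92129 and 40833 at 14 cycles and 105154 and 164839.6 in the 1/2 libraries, so replicate 1 at 14 cycles stood well above the other whole oocytes, and its rise did not pass without replicate 2 at 10 cycles or replicate 2 of the 1/2 group, or with GC correction.

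Library breadth differed too. After random thinning to the depth of the shallowest library, 19758 and 18782 genes had a count at 10 cycles, 19552 and 19454 at 14 cycles and 16573 and 16930 in the 1/2 libraries (exact two-sided permutation p = 0.133). Reads on overlapping genes, which were left uncounted, made up 2.64% and 2.72% at 10 cycles, 2.98% and 2.75% at 14 cycles and 4.53% and 4.35% in the 1/2 libraries. Reads on no feature made up 10.5% and 10.6% at 10 cycles, 10.8% and 10.4% at 14 cycles and 6.90% and 7.57% in the 1/2 libraries (exact two-sided permutation p = 0.133). The part of these library measures in the gene results was not tested. The ERCC molecules had been through the same amplification but did not come from the oocyte. ERCC counts were 35852 and 25528 at 10 cycles, 35616 and 39046 at 14 cycles and 9167 and 10467 in the 1/2 libraries. Of 41 ERCC molecules tested 1 (2.44%) was lower and 3 (7.32%) were higher in the 1/2 libraries after scaling on the ERCC counts. ERCC-00113 had 802 and 773 normalized counts at 10 cycles, 811 and 793 at 14 cycles and 3207 and 1840 in the 1/2 libraries, a log2 fold change of 1.66 (SE 0.16, adjusted p = 4.12e-08, edgeR). ERCC-00002 and ERCC-00130 rose by 0.60 and 0.52, and ERCC-00003 fell, at -1.49. Gene counts per ERCC count were 323 and 360.0 at 10 cycles, 347 and 354 at 14 cycles and 439 and 344 in the 1/2 libraries. Whole oocytes at 18 cycles, outside this comparison, had 1873 and 1158.

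The 1/2 libraries were also set against 2 whole oocytes that had 18 cycles as well, a comparison that shares the 1/2 libraries with the one above. Of 17633 genes tested in a fit of 8 libraries, 2 (0.0113%) were lower and 20 (0.113%) higher in the 1/2 libraries by edgeR, with 3144 at an unadjusted p under 0.05, and DESeq2 called 256 lower and 340 higher. The median log2 fold change was 0. Without one library these counts ranged from 0 to 17 lower and from 0 to 99 higher. Among the genes that rose, named after their values were seen, were the proteasome genes Psmb1 and Psma1, the mitochondrial ribosomal genes Mrpl22 and Mrpl32, the synthetase-complex gene Eef1e1, the calmodulin gene Calm2 and the ribosomal gene Rplp0, and Gm43909 and Gm49755 were the pair that fell. Psmb1 had 857 and 891 normalized counts in the whole oocytes at 18 cycles and 4695 and 2493 in the 1/2 libraries, a log2 fold change of 2.10 (SE 0.29, adjusted p = 0.00551, edgeR). For the genes named above the whole oocytes at 18 cycles had 136119.8 and 87819 normalized counts of Khdc3, 46500.4 and 50323 of Zar1, 12967 and 10652 of Padi6, 7307 and 8932 of Bmp15, 9169 and 8662 of Nlrp14 and 3593 and 8360.5 of Fgf8. Their count-weighted mean GC was 51.2% in both. None of these 6 genes passed the test between 1/2 and whole oocytes at 18 cycles. Rplp0 did, with 1514 and 1143 normalized counts in those whole oocytes and a log2 fold change of 1.59 (SE 0.25, adjusted p = 0.00912, edgeR). Mitochondrial ribosomal protein genes summed to 79885 and 85067 normalized counts in those whole oocytes and 98298 and 70696.9 in the 1/2 libraries. Sums for oxidative phosphorylation were 112677.7 and 110726, against 140022 and 96710.3. Obox, Nlrp and Oog genes summed to 26906.9 and 29805.4, against 24282.1 and 35794.3. Mitochondrially encoded genes took 0.0407% and 0.0665% of the gene counts at 18 cycles. Differences in these measures were not tested.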

How the data were processed

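Poly(A) RNA of single oocytes and of oocyte fractions was sequenced in 12 libraries, of which 6 entered the main comparison. The deposited values are raw counts for 55573 genes and 92 ERCC molecules. Per the labels they were made with Cutadapt 2.5, STAR 2.7.2a on GRCm38 (mm10) and HTSeq 0.9.1, while the methods of the paper name other versions of these tools and default counting, which goes by strand. Whether that default applied to these files was not settled, so overlapping and antisense genes are uncertain. Reads on no feature made up 6.90% and 7.57% in the 1/2 libraries and 10.4% to 10.8% in the reference. GENCODE M21 held 55480 of the genes, 55394 with a transcript sequence, and gave GC and length.

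Differences were tested with edgeR 4.0.16 (quasi-likelihood, two-sided) in R 4.3.3, with median-ratio size factors and the 4 reference libraries as 1 group. A gene was tested when 2 or more of the 6 libraries held 5 counts, and called at a Benjamini-Hochberg adjusted p under 0.01. The code was tested on simulated data. GC correction took a smooth trend of each library on transcript GC out as an offset. Measures with 1 value per library were compared by an exact permutation test.

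Members and lists were chosen with earlier results of these data known. Genes could be named in 6 ways, and a selection is given. They were the 12 largest rises and falls among called protein-coding genes that averaged 50 normalized counts, had no overlap between groups, no overlapping gene and a full symbol; up to 3 called members each way and 2 others from each list by abundance; the 5 most abundant genes of each group; up to 6 genes with at most 3 counts in each library of 1 group; the 3 called genes at each end of transcript GC; and Rpl19, Rpl32, Rps20 and Exosc10, which the paper names. The genes at each end of transcript GC were protein-coding and met the same limits on level and overlap as the largest rises and falls. Further oocyte genes, Kitl, Tnfaip6 and the genes of the comparison at 18 cycles were named after their values were seen.

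Alternatives were DESeq2 1.42.0, TMM, ERCC size factors, dropping the filter, a filter of 10 counts in all libraries, a threshold of 0.05, only 10 or only 14 cycles as the reference, both as separate groups, 12 libraries in 6 groups, the replicate number as a block, GC correction alone and with the block, counts drawn down to the smallest total, protein-coding genes only, and leaving out each library. A reference of replicate 2 at 10 cycles and replicate 1 at 14 cycles was chosen after seeing the data.

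Results for some genes and 1 gene list are not reported here.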

Additional observations from a re-analysis of the deposited data

Results flagged for a closer look

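In 7 of 141 results examined, 1 of the 4 reference libraries stood apart, its gap to the nearest of the others, as a share of their whole range, lying above Dixon's critical value. Chance gives this in about 1 of 20 results. Replicate 2 at 10 cycles had the lowest number of genes with at least 10 counts after thinning, 11928 against 12274 to 12324, a gap of 0.874 of the range. That library also had the highest level of Rpl39l (0.876 of the range), Ndufb3 (0.949), Eif5 (0.856), Psma2 (0.856) and Exosc10 (0.832). Replicate 1 at 14 cycles had the highest level of the rRNA entry CT010467.1, 92129 normalized counts against 38395 to 42516 (0.923).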

How the results depend on the processing

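The higher count stayed within 1.5 times of 2713 except with only 10 cycles (1585) or only 14 cycles (1801) as the reference, where fewer libraries were compared. The lower count, 2087, was 932 and 1165 there. The lower count was 3529 at a threshold of 0.05 and 1386 with the added reference of 2 libraries. Leaving out 1 library gave 1078 to 1956 lower and 2004 to 2644 higher genes, a median log2 fold change of -0.27 to -0.20 and a rank correlation with GC of 0.27 to 0.35. Where a library was alone in its group it was assumed to vary like the others.

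The median of all genes, -0.25, was -0.30 with TMM, -0.19 with ERCC size factors, -1.0 without a filter, 0.0012 with at least 10 counts in every library, -0.23 with 10 and 14 cycles as separate groups, -0.13 with only 10 cycles, -0.18 with only 14 cycles, -0.29 with 12 libraries, -0.40 with GC correction, -0.11 with counts drawn down and -0.13 with the added reference. The rank correlation with GC was 0.26 without a filter, 0.030 with GC correction, which removes it by construction, and 0.37 with the added reference. The cause of the other shifts was not tested. With the replicate block the median was -0.27, and with the replicate block and GC correction it was -0.40 and the rank correlation 0.029. Replicates share only a number: deviations of same-numbered libraries correlated at -0.05, -0.13 and -0.10 over 10420 genes, which do not stand for independent samples. The rise of Ybx2 turned to -0.033 with GC correction and to -0.026 with the replicate block and GC correction.

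Against whole oocytes at 18 cycles the counts were 256 lower and 340 higher with DESeq2, 5 and 31 with TMM, and 297 and 299 without a filter, with 5 lower under the replicate block. Leaving out 1 library gave 0 to 17 lower and 0 to 99 higher. For protein-coding genes only, the difference in mitochondrial share was -0.113 points (-0.226 with all genes), in genes with a count after thinning -1425.2 (-2635) and in genes with at least 10 counts -803 (-1070). The share of the 100 most abundant genes separated the groups by 1.36 points with all genes, but by 0.149 points with protein-coding genes, where the groups overlapped (exact permutation p = 0.8). Among the log2 fold changes of named genes under the alternatives, 2442 kept direction and side of the threshold, 163 no longer passed, 17 newly passed and 2 reversed, and of the list medians 468 moved little and 191 more. The 1/2 libraries, with 4024670 and 3598549 gene counts, limit what can be said of rare transcripts.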

Other observations

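Genes on the X chromosome fell in 93 (16.5%) and rose in 29 (5.14%) of 564 cases in the 1/2 libraries, against 11.9% and 15.5% over all genes tested, at a median log2 fold change of -0.84, against -0.25 over all genes tested. Their median transcript GC was 45.8%, and with GC correction the median was -0.70. On chromosome 11, where the median GC was 52.2%, 117 (9.54%) of 1227 genes fell and 229 (18.7%) rose, nearer to those shares, at a median of -0.02. The median reference level was 45.8 normalized counts on X, 47.7 on chromosome 13 and 111 on chromosome 11. Chromosome 13 had a median log2 fold change of -0.65 and chromosome 1 had -0.57, so a low median was not particular to X. The part of abundance in these medians was not tested.

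Libraries of 1/4 and 1/8 of an oocyte stood outside the comparison. Khdc3 had 181970.3 and 110751 normalized counts in 1/4 and 33227 and 16444 in 1/8, and Padi6 had 20415 and 21587 in 1/4 and 30218 and 22913 in 1/8. For both genes the 1/8 libraries lay nearer to the whole oocytes at 10 and 14 cycles than the 1/2 libraries did. The count-weighted mean GC was 51.0% and 50.7% in 1/4 and 49.7% and 48.6% in 1/8.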
